A study of Drosophila melanogaster with 18 samples.

Results

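The regions described here are 215 of the 1316 RNA regions (peaks) that the authors listed as differing in N4-acetylcytidine (ac4C) capture between control larvae of Drosophila melanogaster and larvae with RNAi against NAT10 and Xrp1. They are the listed peaks with at least 100 input reads summed over the 6 input libraries of the 2 genotypes, and the other 1101 listed peaks fell below that minimum. The authors had chosen all 1316 on the difference in IP relative to input in these same libraries. The sizes and directions of the ratio, IP and input differences between the genotypes are therefore given as a description, with no test. The 215 peaks lie in 185 genes and, after overlapping peaks were merged, at 191 sites. In all, 47 of them share a site with another, and 5 pairs are the same interval listed again.

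NAT10 is the acetyltransferase that makes ac4C, a modified form of cytidine found in ribosomal RNA, some transfer RNAs and, in several reports, messenger RNA. In ac4C-RIP-seq, fragmented RNA is pulled down with an antibody against ac4C, and the recovered fragments (IP) are sequenced beside an untreated share of the same RNA (input). The IP/input ratio over a peak is read as capture, and it can move because IP reads move, because input reads move, or both. Xrp1 encodes a bZIP transcription factor switched on by several kinds of cell stress.

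Whole 3rd-instar larvae were used, with 3 biological replicates per genotype and an input and an IP library for each. The control, labelled Dats-GAL4/+, carried the driver alone, which is da-GAL4, active throughout the body, with tub-GAL80ts, a temperature-sensitive block on it. The RNAi larvae carried the same driver with UAS-NAT10-RNAi and Xrp1-RNAi, and a further genotype carried the driver with UAS-NAT10-RNAi alone. Egg collection lasted 24 h at 18 °C, and larvae of every genotype were moved to 30 °C in the first instar. The harvest came 72 h later for control and 120 h later for NAT10 RNAi larvae, whose development was delayed. The labels give no time for larvae with both constructs, so developmental age and genotype cannot be told apart. RNA came from 40 larvae per sample, so a transcript level mixes all tissues, and fewer cells of a type and less RNA per cell cannot be told apart.

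The knockdown labels were checked first. Xrp1 stood at 208, 211 and 214 FPKM (fragments counted per unit of gene length and of sequencing depth) in the control input libraries and at 40.4, 40.9 and 43.9 FPKM in the libraries with both constructs, a log2 difference of -2.31 ± 0.04 (SE; limma, Benjamini-Hochberg adjusted p = 2.31e-11). The NAT10 transcript, annotated as l(1)G0020, stood at 5.13, 4.97 and 5.46 FPKM in control and at 6.18, 6.04 and 6.02 FPKM with both constructs, wholly above control. The log2 difference was 0.20 ± 0.06 (SE; limma, adjusted p = 0.025), against the direction that the knockdown label implies. That call was lost by DESeq2 (adjusted p = 0.0533) and without control replicate 1 (0.0626) or 2 (0.0872) or without replicate 1 (0.0509) or 2 (0.0514) of both constructs. With NAT10 RNAi alone l(1)G0020 stood at 5.22, 5.93 and 5.76 FPKM, so it was not lower there either (0.10 ± 0.06, SE; limma, adjusted p = 0.166). Xrp1 stood at 385, 386 and 385 FPKM in those libraries, above control by 0.87 ± 0.04 (SE; limma, adjusted p = 8.46e-09). Exons of l(1)G0020, on the minus strand, share 234 bases with exons of CG1785 on the opposite strand, and without a given strand setting reads of both genes cannot be told apart there. One listed peak lies in l(1)G0020, in coding sequence at X:8718667-8718846, and had too few input reads to be among the 215. IP reads over it were 49, 42 and 43 in control and 10, 13 and 12 with both constructs, and its input reads were 8, 10 and 13 in control and 1, 0 and 0 with both constructs. Reads over this stretch were fewer in every library with both constructs than in every control library, unlike the level over the whole gene. The authors listed this peak for a difference between these same libraries, so its reads cannot serve as a check of the knockdown. The libraries are called by their labels, and a lower NAT10 transcript level was not seen over the whole gene. No listed peak lies in Xrp1. The control input libraries held 17291110 to 19223499 reads in genes and the RNAi input libraries 15518179 to 21848490, and the depth of the IP libraries is not given by the files.

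The IP/input ratio was higher in the RNAi larvae at 87 of the 215 peaks and lower at 128. On the log2 scale, with 1 read added to each value, the difference in ratio had a median of 1.09 among the former (0.91 to 1.63) and of -1.09 among the latter (-1.98 to -0.88). The 3 RNAi ratios lay wholly above the 3 control ratios at 67 of the 87 peaks and wholly below at 113 of the 128. Among all 1316 listed peaks, 32.7% were wholly above and 39.4% wholly below. Since these ratios chose the peaks, nothing is read from these shares. At the minimum itself, CG15572 and CG3430 had 100 input reads and ratio differences of 1.09 and -1.14. Just below it, Ziz and Stt3B had 99 input reads and ratio differences of 0.99 and 1.59.

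At these listed peaks the differences in ratio lay mostly on the input side. The ratio chose the peaks, and at 214 of the 215 the summed input reads were fewer than the summed IP reads. Smaller counts vary more on the log scale, so the share of each side describes the chosen peaks only. Where the ratio was higher, IP reads had a median log2 difference of -0.03 (quartiles -0.29 and 0.31), while input reads had a median of -1.20. Where the ratio was lower, IP reads had a median of -0.24 and input reads a median of 0.88. Input reads moved further than IP reads at 181 of the 215 peaks, made up of 76 of the 87 with a higher ratio and 105 of the 128 with a lower ratio. The same held at 1118 of all 1316 listed peaks. The IP median where the ratio was higher lay near 0 and its sign depended on the setting, being 0.23 over all listed peaks and 0.015 after libraries were divided by their median.

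Counts of peaks whose replicates did not overlap gave the same contrast. Among the 87 peaks with a higher ratio, input reads were lower in all 3 RNAi libraries than in any control library at 64 and higher at 1, and IP reads were higher at 16 and lower at 18. Among the 128 peaks with a lower ratio, input reads were higher without overlap at 90 and lower at 3, and IP reads were lower at 47 and higher at 12. Over all listed peaks of both directions, 28.0% had wholly higher and 27.8% wholly lower input reads, and 10.7% had wholly higher and 19.8% wholly lower IP reads. Of the 608 listed peaks with a higher ratio, input was wholly lower at 363 and higher at 3. IP was wholly higher at 117 of them and lower at 43, unlike the near-even counts among the 87. Of the 708 listed peaks with a lower ratio, input was wholly higher at 366 and lower at 3, and IP wholly lower at 217 and higher at 24. IP reads differed by less than 1.5-fold at 67 of the 87 and at 104 of the 128 peaks, and input reads differed by at least 2-fold at 50 and at 47. Over all listed peaks the former held at 418 of 608 with a higher and 482 of 708 with a lower ratio, and the latter at 433 and 405. Mean IP reads were lower in the RNAi larvae at 45 of the 87 peaks with a higher ratio and at 97 of the 128 with a lower ratio.

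**Figure D1:**
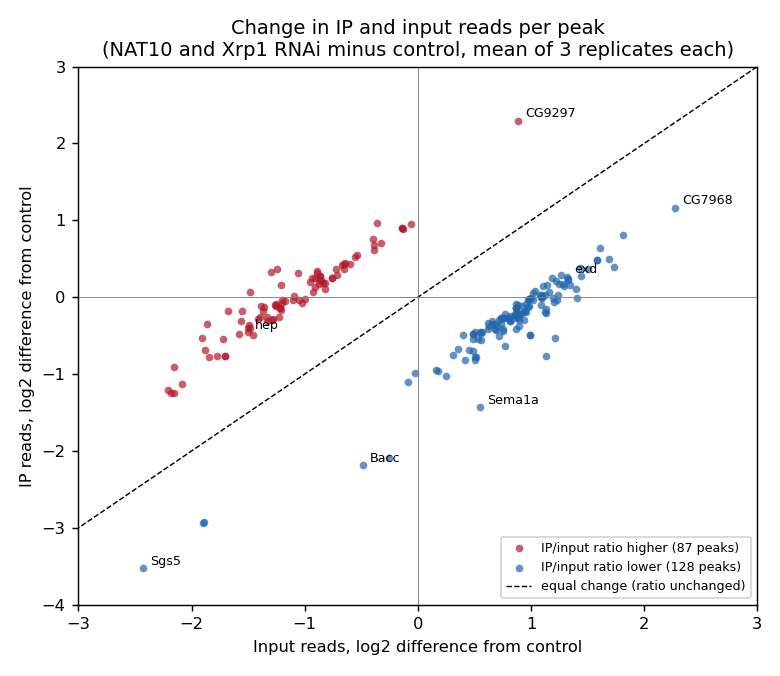
Log2 difference in IP reads against log2 difference in input reads for the 215 peaks (RNAi minus control, means of 3 replicates), with the dashed line marking equal change. Most points are spread along the input axis and lie within 1.5-fold of no change in IP reads, and Sgs5, Bacc, Sema1a, CG7968 and CG9297 lie farther from it.

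The libraries did not contribute alike. Against the control mean, the median log2 difference in input reads over the 87 peaks with a higher ratio was -1.51, -1.11 and -0.62 in RNAi replicates 1, 2 and 3. Over the 128 peaks with a lower ratio it was 0.65, 0.98 and 1.06. In both groups of peaks replicate 1 had the fewest input reads relative to control and replicate 3 the most. The RNAi input libraries held 15518179, 16902810 and 21848490 reads in genes in the same order, and the part of depth in these differences was not tested. The IP medians were 0.01, 0.04 and 0.01 for the former peaks and -0.28, -0.13 and -0.24 for the latter. After input reads were scaled to reads in genes, 86 of the 87 peaks still had lower input and 122 of the 128 higher input in the RNAi larvae.

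**Figure D2:**
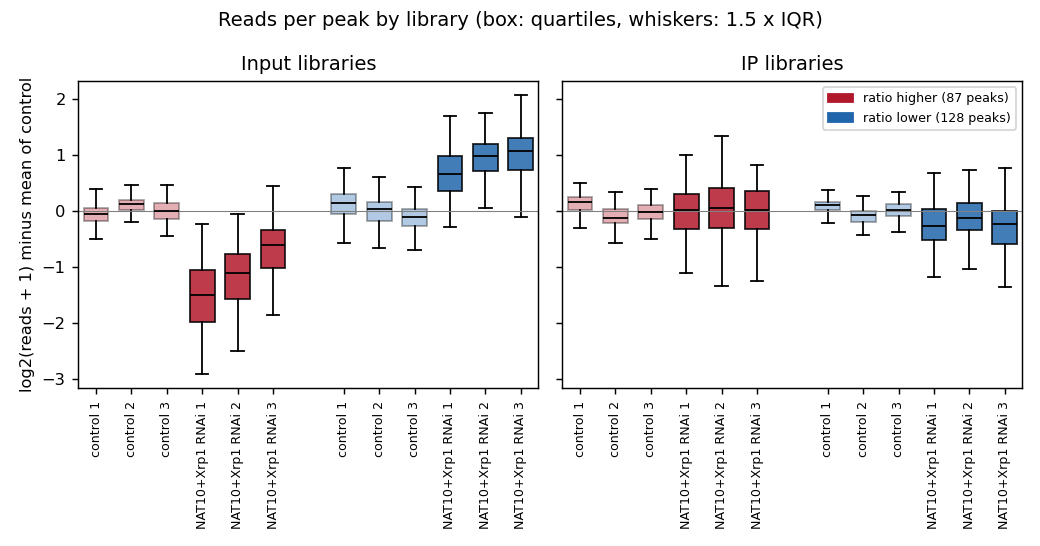
Log2(reads + 1) per peak minus the control mean in each of the 12 libraries, for the 87 peaks with a higher ratio (red) and the 128 with a lower ratio (blue), with pale boxes for control. Boxes of the RNAi input libraries lie apart from control in opposite directions for the red and blue peaks, with red medians of -1.51 to -0.62, whereas the IP boxes lie near 0.

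Input coverage was thin at most of the peaks. The median input count per peak was 22, 28 and 31 reads in the RNAi libraries and 27, 26 and 23 reads in the control libraries, against 82, 94 and 85 IP reads and 105, 94 and 96 IP reads. Of the 215 peaks, 139 had under 200 input reads in all, 59 had 200 to under 500 and 17 had 500 or more. Among the 139, the 62 peaks with a higher ratio had a median IP difference of 0.17 and a median input difference of -0.94. Among the 17, the 10 peaks with a higher ratio had medians of -0.40 for IP and -1.49 for input, and the 7 with a lower ratio had -0.56 and 0.56. At the deepest covered peaks, then, the median IP difference was below 0 whichever way the ratio went. Where the ratio was lower there, the IP and input medians were nearly equal in size, so the input side did not exceed the IP side.

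The peaks with the most input reads show the pattern in single libraries. The peak with a higher ratio and the most input reads lies in the 5′ UTR of Hsc70Cb (FBgn0026418, BDGP6 3L:14037048-14037257, plus strand), which encodes a chaperone of the Hsp110 family. Its input reads were 990, 1070 and 890 in control and 314, 330 and 418 in the RNAi larvae, and its IP reads were 1540, 1355 and 1445 in control and 1149, 1056 and 1078 in the RNAi larvae. Both kinds of library were wholly lower, input by more, so the ratio went from 1.55, 1.27 and 1.62 to 3.65, 3.19 and 2.58.

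A peak in the 3′ UTR of hep (FBgn0010303, X:13084330-13084570, minus strand), the kinase that activates JNK, had 525, 499 and 448 input reads in control and 148, 158 and 218 in the RNAi larvae. Its IP reads were 2190, 1828 and 2144 in control and 1448, 1679 and 1367 in the RNAi larvae. IP and input were again both lower without overlap, with log2 differences of -0.46 and -1.50. The level over the whole hep gene differed by -0.35 ± 0.04 (SE, log2(FPKM + 1) scale).

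The same course was seen at emc and Nplp4. The peak in the 3′ UTR of emc (FBgn0000575, 3L:752690-752750, plus strand), an HLH protein that holds back bHLH transcription factors, had 377, 461 and 429 input reads in control and 109, 158 and 226 in the RNAi larvae. In IP it had 335, 295 and 383 reads in control and 276, 290 and 265 in the RNAi larvae. In control its IP reads were fewer than its input reads, with ratios of 0.889, 0.641 and 0.893, and in the RNAi larvae the ratios were 2.52, 1.83 and 1.17. These ratios are not scaled and the depth of the IP libraries is not known, so a ratio of 1 does not mark equal capture. Nplp4 (FBgn0040717, 2L:2009012-2009072, plus strand), a neuropeptide-like precursor gene, had a 3′ UTR peak with 358, 405 and 304 input reads in control and 75, 111 and 111 in the RNAi larvae. IP reads there were also lower, at 772, 710 and 759 against 387, 439 and 482, and the level over the whole gene differed by -1.32 ± 0.06 (SE).

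Peaks with a lower ratio had more input reads in the RNAi larvae. The peak in the 5′ UTR of HUWE1 (FBgn0030674, X:15714024-15714145, plus strand), a HECT-type ubiquitin ligase, had 194, 182 and 186 input reads in control and 360, 354 and 391 in the RNAi larvae. Its IP reads were 616, 518 and 555 in control and 506, 672 and 487 in the RNAi larvae, and these overlapped. Its ratio went from 3.16, 2.84 and 2.97 to 1.40, 1.90 and 1.24, and the whole gene differed by 0.03 ± 0.04.

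The peak in the coding sequence of exd (FBgn0000611, X:15993647-15994047, plus strand), a homeodomain partner of the Hox proteins, had 145, 129 and 142 input reads in control and 345, 317 and 384 in the RNAi larvae. IP reads were higher too, at 554, 531 and 476 against 588, 639 and 645, so its lower ratio went with more IP reads, not fewer, before any scaling. Its ratio difference was -1.06, and -0.86 after libraries were divided by their median. The peak in the 3′ UTR of Pur-alpha (FBgn0022361, 4:566302-566452, plus strand), which binds single-stranded nucleic acids, had 207, 192 and 166 input reads against 285, 264 and 283. Its IP reads were lower, at 650, 534 and 633 against 419, 420 and 387, so here IP and input moved apart by the same size, -0.56 and 0.56.

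**Figure D3:**
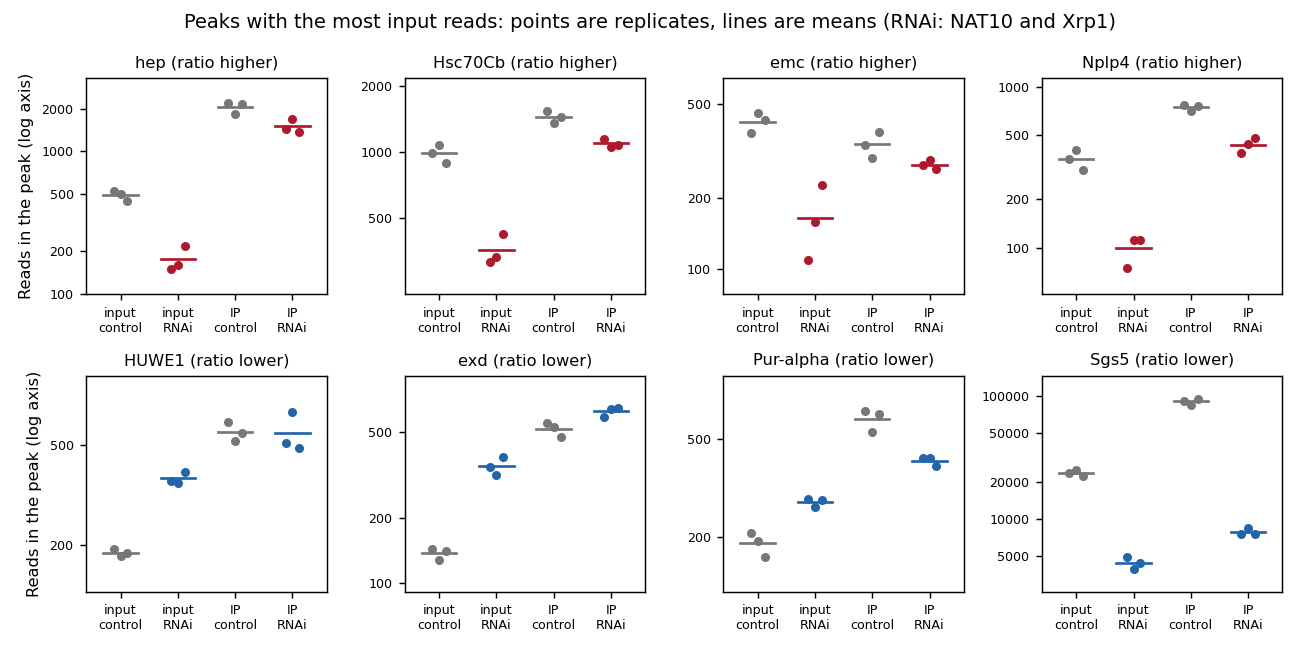
Reads in each input and IP library (log axis, points are replicates and lines are means) for the 4 peaks per direction with the most input reads and no overlap of ratios between genotypes. The input points of the RNAi larvae lie below control in the upper panels and above control in HUWE1, exd and Pur-alpha, while at Sgs5 both input and IP are lower.

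The salivary glue gene Sgs5 (FBgn0003375, 3R:17595967-17596112, plus strand) had far more reads than any other of these peaks. Its 3′ UTR peak had 23782, 25307 and 22266 input reads in control and 4943, 3924 and 4396 in the RNAi larvae. In the IP libraries it had 92251, 84302 and 95527 reads in control and 7581, 8435 and 7621 in the RNAi larvae. The IP difference of -3.52 exceeded the input difference of -2.43, and the ratio went from 3.88, 3.33 and 4.29 to 1.53, 2.15 and 1.73. The whole gene was at 2650, 2692 and 2661 FPKM in control and at 575, 455 and 401 FPKM in the RNAi larvae. Glue genes are turned on late in the last larval stage, and the harvest time of the RNAi larvae is not given.

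The largest higher ratios were at genes of modest coverage. The 5′ UTR peak of CG6966 (FBgn0038286, 3R:15095451-15095541, minus strand) had 85, 74 and 67 input reads in control and 23, 35 and 33 in the RNAi larvae, with 45, 40 and 44 against 48, 57 and 58 IP reads. Its ratio went from 0.535, 0.547 and 0.662 in control to 2.04, 1.61 and 1.74 in the RNAi larvae. The difference of 1.63 was made up of 0.33 in IP and -1.30 in input. A 3′ UTR peak of the corepressor gene CtBP (FBgn0020496, 3R:13022446-13022626, plus strand) had 21, 24 and 28 input reads in control and 9, 7 and 14 in the RNAi larvae, with overlapping IP reads of 63, 32 and 45 against 61, 62 and 53.

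Another corepressor gene, gro (FBgn0001139, 3R:26042864-26043016, plus strand), had a peak in annotated intron with 90, 100 and 76 input reads in control and 18, 23 and 31 in the RNAi larvae. Its IP reads of 154, 108 and 136 against 112, 93 and 106 overlapped. An intronic peak of dpy (FBgn0053196, 2L:4570553-4570698, minus strand), which encodes a giant protein of the apical extracellular matrix, had 25, 33 and 31 input reads in control and 4, 12 and 19 in the RNAi larvae. Its RNAi ratios of 18.2, 6.23 and 3.45 were widely spread, the highest resting on 4 input reads.

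At X:3388451-3388631 the peak assigned to CG12535 (FBgn0029657, minus strand) lies wholly on an exon of Myc on the opposite strand. A second listed peak over the same stretch was assigned to Myc (FBgn0262656, X:3388430-3388641, plus strand), the growth-promoting transcription factor. Both rows held 121, 132 and 120 IP reads in control and 125, 96 and 110 in the RNAi larvae, so which gene the reads came from is uncertain. Input reads in the Myc row were 60, 55 and 67 in control and 15, 18 and 29 in the RNAi larvae, a log2 difference of -1.56, while the Myc gene level differed by -0.04 ± 0.04 (SE). The shorter CG12535 row held 64, 60 and 68 input reads in control, more than the longer Myc row, and 15, 16 and 30 in the RNAi larvae. Why input differed between the rows while IP did not was not tested.

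A single peak had a higher ratio together with more IP reads and more input reads, neither overlapping control. It lies in the coding sequence of CG9297 (FBgn0038181, 3R:13776284-13776345, plus strand). Its IP reads were 14, 11 and 7 in control and 38, 76 and 56 in the RNAi larvae, and its input reads were 12, 17 and 13 against 23, 26 and 31. The gene itself stood at 83.4, 84.2 and 82.2 FPKM in control and at 330.5, 319.8 and 331.7 FPKM in the RNAi larvae. The control ratios were 1.15, 0.667 and 0.571, so IP reads were fewer than input reads in 2 of the 3 control libraries.

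The largest drops in ratio included peaks at which the IP reads themselves were fewer. The 3′ UTR of Bacc (FBgn0031453, plus strand) holds a pair of overlapping peaks, at 2L:2757048-2757258 and 2L:2757078-2757139. The longer had 754, 589 and 717 IP reads in control and 209, 127 and 154 in the RNAi larvae, while its input reads of 58, 89 and 88 against 64, 61 and 68 overlapped. Its ratio went from 12.8, 6.56 and 8.07 to 3.23, 2.06 and 2.25. IP reads at the longer peak thus differed by -2.09, input reads by -0.26, and the whole Bacc gene by -0.27 ± 0.08 (SE).

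Sema1a (FBgn0011259, 2L:8671830-8672041, plus strand), a transmembrane semaphorin of axon guidance, had the largest lower ratio of the 215 peaks, -1.98. Its 3′ UTR peak had 171, 166 and 164 IP reads in control and 73, 45 and 70 in the RNAi larvae, with 35, 42 and 30 against 70, 44 and 46 input reads. IP was lower and input higher without overlap, and the gene level differed by -0.51 ± 0.05 (SE). The 3′ UTR peak of nonA (FBgn0004227, X:16365765-16365975, plus strand), a nuclear RNA-binding protein gene, had 75, 91 and 95 against 53, 45 and 54 IP reads and 11, 10 and 19 against 35, 25 and 29 input reads.

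The 5′ UTR peak of the helicase gene Hlc (FBgn0001565, X:21387796-21387946, minus strand) had 111, 85 and 113 IP reads in control and 70, 80 and 63 in the RNAi larvae, with 27, 20 and 14 against 43, 50 and 48 input reads. At nonA and Hlc the input difference, 1.14 and 1.21, was larger than the IP difference, -0.77 and -0.53. Pbp49 (FBgn0260398, 2R:8129472-8129682, minus strand), a subunit gene of the complex that starts small nuclear RNA transcription, followed with a ratio difference of -1.48. Its peak lies wholly on exons of CG42516 and Socs44A, so its reads cannot be assigned to Pbp49 with certainty.

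Few peaks had IP reads that differed by at least 2-fold, 5 of the 87 with a higher ratio and 9 of the 128 with a lower ratio. Besides CG9297, those with a higher ratio were overlapping peaks of CG10543 and of CG31712, where IP was lower and input lower still. The CG10543 peak (FBgn0034570, 2R:21007380-21007530, plus strand, 3′ UTR) had 243, 198 and 256 IP reads in control and 89, 104 and 106 in the RNAi larvae. Its input reads were 46, 49 and 39 against 5, 9 and 15, the largest input difference among the peaks with a higher ratio at -2.20. The CG31712 peak (FBgn0051712, 2L:9935871-9936080, minus strand, 3′ UTR) was close behind, with 32, 31 and 37 against 8, 5 and 7 input reads. The ratio difference at a listed CG31712 peak depended on the setting. It was 0.54 with 5 reads added to each value and 1.14 after libraries were divided by their median.

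At the other end, 3 peaks with a lower ratio had the largest gains of input reads. CG7968 (FBgn0028532, 2L:13849761-13849971, plus strand, coding sequence) had 28, 26 and 16 input reads in control and 112, 114 and 114 in the RNAi larvae. IP reads were also higher, at 126, 102 and 96 against 226, 263 and 237, and its gene level differed by 1.55 ± 0.09 (SE). The coding sequence peak of Pkcdelta (FBgn0259680 in the files, X:12436094-12436305, plus strand), a protein kinase C gene, went from 7, 8 and 9 to 21, 33 and 41 input reads and from 54, 52 and 46 to 81, 101 and 87 IP reads. CG32170 (FBgn0052170, 3L:16877338-16877429, plus strand, 5′ UTR) went from 12, 10 and 8 to 34, 29 and 44 input reads, with overlapping IP reads.

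Other peaks with IP reads lower by at least 2-fold were in Gmap, bchs, CG8087 and CR44138, and at the last 2 input was lower too without overlap. The CG8087 peak (FBgn0038241, 3R:14564464-14564521, minus strand, coding sequence) went from 299, 253 and 260 to 39, 27 and 39 IP reads and from 102, 66 and 72 to 26, 23 and 14 input reads. The noncoding gene CR44138 (FBgn0264987, 3R:13376902-13377048, plus strand) went from 108, 117 and 102 to 8, 23 and 13 IP reads. Over their whole length the genes differed by -1.85 ± 0.20 and -1.55 ± 0.19 (SE), and all 4 genes were named here after their values were seen.

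Peaks with a higher and with a lower ratio differed in where they lay on their transcripts. Of the 87 peaks with a higher ratio, 44 (50.6%) lay mostly in 3′ UTR, 24 (27.6%) in coding sequence and 13 (14.9%) in 5′ UTR. Of the 128 with a lower ratio, 85 (66.4%) lay in coding sequence, 27 (21.1%) in 3′ UTR and 8 (6.25%) in 5′ UTR. With 1 count per site, 39 of 77 sites with a higher ratio were in 3′ UTR and 76 of 114 with a lower ratio in coding sequence. Over all listed peaks the split was weaker for 3′ UTR among higher ratios (33.6%) and stronger for coding sequence among lower ratios (74.7%). Among all listed peaks with a higher ratio, more lay in coding sequence (47.4%) than in 3′ UTR. The authors' whole peak lists had 69.1% in coding sequence and 15.8% in 3′ UTR for control (31666 peaks), and 66.0% and 18.4% for both constructs (30887 peaks). The coding sequence share of the 128 peaks with a lower ratio lay close to those of the whole lists. No test was made of these shares, since the direction of the ratio was part of how the peaks were listed.

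By region, the medians differed more in input reads than in IP reads. The 109 peaks in coding sequence had a median input difference of 0.86 and a median IP difference of -0.13. The 71 in 3′ UTR had -0.72 for input and -0.25 for IP, and the 21 in 5′ UTR had -0.84 and 0.16. Input is part of the ratio that chose the peaks, and the regions held unlike numbers of peaks of each direction. Of the peaks in coding sequence 24 had a higher and 85 a lower ratio, and of those in 3′ UTR 44 and 27. Nothing is therefore read from these medians about input fragments of the RNAi larvae beyond the listed peaks. Transcripts were longer for peaks with a higher ratio (median 3802 against 2371 bases), and the peaks themselves were shorter (151 against 210 bases). Median relative position along the transcript was 0.656 (79 peaks) where the ratio was higher and 0.650 (119 peaks) where it was lower. Over all listed peaks it was 0.591 (558 peaks) and 0.481 (644 peaks), and transcripts had medians of 3269 and 2543 bases.

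**Figure D4:**
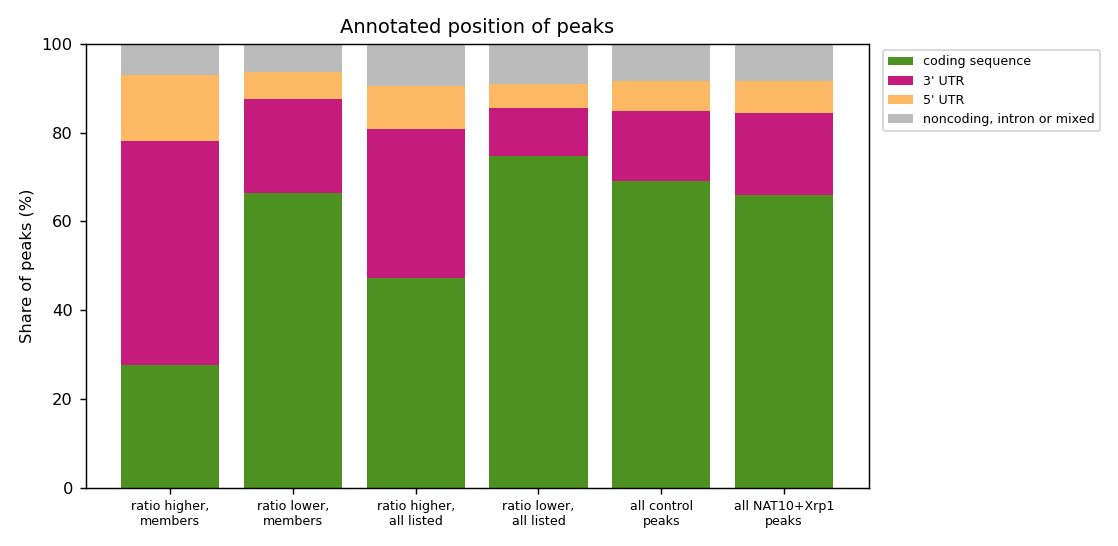
Share of peaks (%) lying mostly in coding sequence, 3′ UTR, 5′ UTR or elsewhere, for the 215 peaks by direction, all 1316 listed peaks by direction, and the authors' whole lists for control and for both constructs. The 3′ UTR share is 50.6% in the first bar and 21.1% in the second, against 15.8% in the control list.

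Input reads over a peak mostly differed by more than the level of its gene. Scaled to depth, input over the peak had a median log2 difference of -1.18 where the ratio was higher, against -0.14 for the same genes over their whole length. Where the ratio was lower the medians were 0.91 and 0.05. Of the 102 peaks whose scaled input differed by at least 2-fold, 92 lay in genes whose level differed by less than 1.5-fold. So did 198 of all 215 peaks, a like share, so the 92 do not set those peaks apart. Peak input moved further than the gene level at 81 of the 87 and at 121 of the 128 peaks. Across peaks, Pearson's r between the peak and gene differences was 0.63 (Spearman's rho 0.53) over the 87 and 0.79 (rho 0.53) over the 128. Peaks are not independent replicates, they share the same libraries, and a peak's reads are part of its gene's. Input is also part of the ratio that chose the peaks, so the larger differences at peaks are a description and nothing more is read from them.

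**Figure D5:**
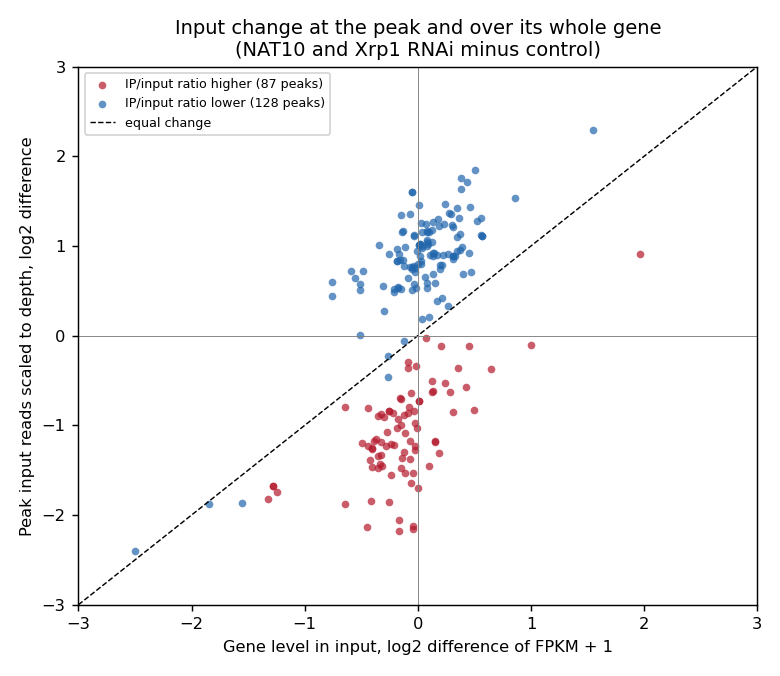
Log2 difference in depth-scaled input reads over each peak against the log2 difference in FPKM + 1 of its gene, in the same input libraries. Red points (higher ratio) lie below and blue points (lower ratio) mostly above the dashed line of equal change, with gene differences mostly near 0 and peak medians of -1.18 and 0.91.

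In a fit of all 11557 genes with at least 1 FPKM in at least 3 input libraries, limma called 4710 (40.8%) different between RNAi and control (adjusted p under 0.05), 21.5% higher and 19.2% lower. Of the 185 genes with a peak, 48 were called higher, 58 lower and 79 did not pass. Their median difference was -0.02, against 0.00 for all genes, and 8 differed by at least 2-fold. Since the fit uses the input libraries that chose the peaks, these counts are a description. In NAT10 RNAi larvae against the same control, 66.2% of all genes were called, 47.3% higher and 18.9% lower, and of the 185 genes 80 were higher, 56 lower and 49 did not pass. After libraries were rescaled by their median ratio the latter counts were 61 higher and 76 lower, and of all genes 32.0% were then called higher and 31.5% lower.

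In all, 28 genes held more than 1 of the 215 peaks, and in 4 of them (CG3860, Eip74EF, Mipp1 and dpy) the ratios went in opposite directions at different sites. Eip74EF (FBgn0000567, minus strand), an Ets transcription factor gene induced early by ecdysone, held 3. Its 3′ UTR peak at 3L:17558940-17559061 had 32, 37 and 31 input reads in control and 11, 8 and 26 in the RNAi larvae. Its coding sequence peak at 3L:17598221-17598312 had 15, 16 and 12 against 23, 25 and 25, inside a longer listed interval. Input was thus wholly lower at the 3′ end and wholly higher in coding sequence of 1 gene, whose level differed by -0.03 ± 0.03 (SE). At the Eip74EF peaks with a lower ratio, the ratio differences were -0.80 and -0.83 after libraries were divided by their median.

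In dpy and Mipp1 too, input reads differed in opposite directions between sites. The coding sequence peak of dpy, at 2L:4479865-4480016, had 32, 31 and 28 input reads in control and 56, 64 and 85 in the RNAi larvae, while its intronic peak described above had fewer. In Mipp1 (FBgn0026061, minus strand), the 3′ UTR peak at 3L:16563625-16563715 went from 23, 29 and 22 to 12, 12 and 15 input reads, and the coding sequence peak at 3L:16564100-16564308 from 24, 19 and 13 to 23, 25 and 34. The last values overlapped.

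The mod(mdg4) gene (FBgn0002781, minus strand), which encodes chromatin proteins from many trans-spliced transcripts, held 3 rows at 1 site, 3R:21355918-21356032, all with a lower ratio. Its input reads there were 12, 16 and 17 in control and 17, 35 and 32 in the RNAi larvae, which touch, and its IP reads overlapped. The peak lies in exons shared with several annotated precursors of the gene. C3G (FBgn0259228, X:6781268-6781508, minus strand), an exchange factor for Rap, had a 3′ UTR site with 900, 796 and 1021 IP reads in control and 497, 576 and 513 in the RNAi larvae. Its input reads of 133, 85 and 80 against 141, 119 and 156 overlapped, so C3G was among the minority in which IP moved further, by -0.77 against 0.51. PPP1R15 (FBgn0034948, 2R:23975894-23976161, minus strand), a regulatory subunit of the phosphatase that acts on eIF2alpha, had 36, 57 and 35 input reads in control and 86, 69 and 75 in the RNAi larvae at its coding sequence site, with 271, 269 and 260 against 230, 244 and 215 IP reads.

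Gene lists fit to larval tissue and to stress held few of the peaks. Ecdysone response genes held 4, the 3 of Eip74EF and 1 in the 5′ UTR of Eip63E (FBgn0005640, 3L:3515989-3516139, plus strand), a cyclin-dependent kinase gene. The Eip63E peak had 106, 116 and 117 input reads in control and 42, 61 and 82 in the RNAi larvae, with overlapping IP reads of 242, 191 and 181 against 229, 230 and 265. Ecdysone synthesis genes held 2, in the coding sequences of ecd and mld, with ratio differences of -1.09 and -1.04.

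Translation factor genes held 3 peaks. In the 3′ UTR of eIF4EHP (FBgn0053100, 3R:24067186-24067277, minus strand), a cap-binding protein that holds back translation, IP reads were wholly higher, at 144, 119 and 145 against 176, 174 and 196. Its input reads were wholly lower, at 51, 57 and 49 against 29, 32 and 37. The 3′ UTR of eIF4A (FBgn0001942, plus strand), the helicase of the cap-binding complex, held 2 separate peaks with lower mean ratios, and at both the ratios overlapped between genotypes. At 2L:5985729-5985790 its IP reads were 72, 59 and 86 in control and 41, 50 and 32 in the RNAi larvae. Input reads there overlapped, at 13, 19 and 15 against 20, 16 and 29, and the level over the whole gene differed by -0.76 ± 0.03 (SE).

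Noncoding genes held 5 peaks. CR32661 (FBgn0030356, X:11918431-11918648, minus strand) had a higher ratio from fewer input reads, 39, 45 and 30 against 15, 13 and 25, with 60, 71 and 81 against 60, 70 and 84 IP reads. At CR45928 (FBgn0267590, 2R:23850534-23850681, plus strand), listed as 2 overlapping peaks, most bases overlap an exon of ytr on the opposite strand. Its input reads were 12, 20 and 7 in control and 21, 38 and 67 in the RNAi larvae, and its ratios overlapped. CR45890 (FBgn0267550, 3L:16302543-16302753, plus strand), wholly on an exon of CG13044, had the most control IP reads of these. They were 327, 234 and 258 IP reads over 21, 17 and 19 input reads, against 232, 211 and 195 over 26, 36 and 30 in the RNAi larvae.

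Some peaks of growth, cell death and energy genes had a higher ratio. The cell death gene hid (FBgn0003997, 3L:18184980-18185131, minus strand) had 1 coding sequence site, listed as 2 peaks, with 65, 79 and 93 input reads in control and 25, 28 and 45 in the RNAi larvae. The 3′ UTR peak of stg (FBgn0003525, 3R:29252152-29252332, minus strand), the Cdc25 phosphatase of mitotic entry, had 27, 29 and 46 against 9, 10 and 13. IP reads at both genes overlapped between genotypes. The 3′ UTR peak of SdhA (FBgn0261439, 2R:19392101-19392251, minus strand), a subunit of respiratory complex II, differed from these. Its input reads overlapped, at 14, 31 and 19 against 14, 18 and 24, and its IP reads were wholly higher, at 29, 39 and 31 against 61, 69 and 57. The peak of the tropomyosin gene Tm1 (FBgn0003721, 3R:15287462-15287643, plus strand) behaved like SdhA, with 64, 54 and 56 against 85, 96 and 87 IP reads. The levels of SdhA and Tm1 over the whole gene differed by 0.45 ± 0.06 and 0.35 ± 0.03 (SE).

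Tissue lists were represented by a peak or a pair at most. Muscle genes held Tm1 and sls, glue genes Sgs5 and testis genes Mst98Ca, and none of the 215 lay in the lists of neuron, blood cell, gut enzyme, fat body or cuticle genes, which held 6, 0, 2, 0 and 1 listed peaks at any input depth. The lists do not hold every gene of a tissue. Sema1a, of axon guidance, and the neuropeptide-like precursor gene Nplp4 are outside the neuron list. The peak in the coding sequence of sls (FBgn0086906, 3L:2097312-2097373, minus strand), a titin-like muscle gene, had 22, 24 and 23 input reads in control and 64, 64 and 92 in the RNAi larvae, with 102, 98 and 103 against 148, 168 and 159 IP reads. None of the 215 lay in genes of the proteasome, the cytosolic or mitochondrial ribosome, ribosome biogenesis or tRNA charging, which held 1, 1, 2, 0 and 4 listed peaks at any input depth. Exons of another gene overlapped 25 of the 215 peaks, whose reads may be shared.

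Libraries of larvae with NAT10 RNAi alone had no part in choosing the 215 peaks, but every value set against control below shares the control libraries that did. Of the 87 peaks with a higher ratio, 39 (44.8%) had at least 50% of their length in the authors' peak list for NAT10 RNAi, against 86 in the list for both constructs and 25 in the control list. Of the 128 with a lower ratio, 75 (58.6%) were in the NAT10 RNAi list, against 37 and 127. With an overlap of any length the NAT10 RNAi shares were 59.8% and 71.1%, and 57 of the 128 were in the list for both constructs. The same shares over all listed peaks were not counted. In most cases the larvae with both constructs, or control, had supplied the call that put the peak in the table, 76 of the 87 coming from the former and 110 of the 128 from the latter. The shares in those lists therefore follow from the selection, and those for NAT10 RNAi lie between them. The authors' own fold enrichment in the NAT10 RNAi list had a median of 2.05 and 2.28 for the peaks in each direction, where each was called.

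The authors' table of NAT10 RNAi against control lists 1336 peaks, and 16 of the 215 intervals recur in it exactly. They are 2 with a higher ratio (hep and CG10543) and 14 with a lower ratio, and in that table too each was listed for a difference from the same control libraries. Nothing is read from their direction there, and the values of 4 of them are given side by side as a description. At the hep peak NAT10 RNAi larvae had 172, 219 and 180 input reads and 1461, 1725 and 1430 IP reads, beside 525, 499 and 448 and 2190, 1828 and 2144 in control. At the longer Bacc peak they had 183, 212 and 179 IP reads, beside 754, 589 and 717 in control, and 58, 89 and 52 input reads.

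The His3.3B and Hlc peaks are also listed in both tables. His3.3B, a gene for a replacement histone, had a 3′ UTR peak at X:9153649-9153858 with 110, 45 and 66 input reads in control, 168, 210 and 226 in NAT10 RNAi larvae and 71, 139 and 161 with both constructs. Its IP reads were 283, 236 and 208 in control, 165, 187 and 205 in NAT10 RNAi larvae and 178, 176 and 176 with both constructs. Input was wholly higher in NAT10 RNAi larvae, overlapped with both constructs, and IP was wholly lower in both. The Hlc peak had 47, 55 and 51 input reads in NAT10 RNAi larvae with 93, 132 and 93 IP reads, so IP there overlapped control.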

How the data were processed

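Per the labels, polyadenylated RNA of 40 larvae was cut to about 100 nt, and 10% served as input while antibody was applied to the remainder for 2 h. Identifiers of 12 bases marked the molecules, and paired reads were 150 bases long. Per the submitters' processing notes the build was BDGP6 and the tools included STAR 2.7.6a, fastp 0.23.1, HOMER 4.9.1, deepTools 3.5.1, bedtools 2.30.0 and, from Subread 1.5.1, featureCounts. Not given in the sources used here are the peak caller, the strand setting and the use of identifiers. The deposited differential peak tables hold, per the file headers, read counts per peak for input and IP libraries. Their log2 change and p-value columns, made by the authors, were not used. The authors' peak lists, 1 per genotype, hold fold enrichment, a ratio, per peak, and the authors' gene table holds FPKM per input library. A further 12 columns of per-library values in deposited gene tables were not used.

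Ratios were log2((IP + 1)/(input + 1)) within each replicate number, since input was taken from the same RNA as IP. IP and input counts were compared as deposited, without scaling, except where scaling to reads in genes is stated. Every FPKM value times gene length was a whole number of reads (100% within 0.1), which gave the depth of input libraries. A region was assigned where at least 50% of a peak lay in it, by the reference annotation of the same build. Gene levels were fitted in R 4.3.3 by limma 3.58.1, with trend and robust options, on log2(FPKM + 1) over all 9 input libraries, two-sided, Benjamini-Hochberg adjusted, threshold 0.05. This scale understates the change of low genes. The procedure was tested on simulated data. edgeR 4.0.16 and DESeq2 1.42.0 on the recovered reads, other pseudocounts, minimums and scalings, and each replicate left out were alternatives.

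Peaks named are those of the targets, the 6 of largest ratio difference per direction without overlap and with a mean of at least 50 IP reads in the higher genotype, the 4 with most input reads per direction, the 4 genes with most peaks, up to 3 per gene list holding at least 3, and the 3 with the largest input difference per direction. Others were named from the gene lists, for exact recurrence or, where stated, after their values were seen. Members and lists were chosen with earlier results of these data known. Replicate numbers of different genotypes share only a number: same-numbered RNAi and control libraries had correlations of 0.02, -0.04 and 0.08. Counts near 20 reads per library carry wide counting error, and reads amplified by PCR are not independent molecules. Sequences were not used here.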

Additional observations from a re-analysis of the deposited data

How the results depend on the processing

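The depth of IP libraries is not known, so IP reads could be scaled only by their median over listed peaks, and most peaks have about 20 to 30 input reads per library. With a minimum of 300 input reads, ratios without overlap numbered 15 higher and 24 lower, IP reads 5 and 21, input reads 17 and 18. With no minimum these were 430 and 519, 141 and 260, and 369 and 366, against 67 and 113, 28 and 65, and 91 and 67. They are counts over unlike numbers of peaks, 1316 with no minimum, 215 at 100 reads and fewer at 300, so they do not compare as shares. The IP median where the ratio was higher was -0.03, and became 0.015 with libraries divided by their median, 0.011 with 1 peak per site, -0.32 at the higher minimum and 0.23 with none; where the ratio was lower it was -0.34 with no minimum. The share in coding sequence of peaks with a lower ratio was 54.2% at 300 reads and 74.7% with no minimum, and the 3′ UTR share of those with a higher ratio 33.6% with no minimum. The alternatives of 1 peak per site and of region shares were chosen after seeing the data. Leaving out 1 replicate, ratios without overlap ranged from 67 to 85 higher and 113 to 124 lower, IP reads from 30 to 49 and 69 to 92, and input reads from 94 to 112 and 67 to 81. The 49 came without control replicate 1. IP medians ranged from -0.087 to 0.024 and -0.28 to -0.17, input medians from -1.36 to -0.92 and 0.80 to 1.03. Genes called by limma ranged from 3843 to 4639 (both constructs; 2034 to 2677 higher, 1740 to 2135 lower) and from 7036 to 8030 (NAT10 RNAi; 5050 to 5715 and 1956 to 2315). With genotype replicate numbers as a block 4539 and 7581 genes were called, against 4710 and 7653. Lower genes in NAT10 RNAi numbered 2185, but 3642 after rescaling, 3660 by edgeR and 3431 by DESeq2, which called 3393 higher. In that comparison CG10543 and mod(mdg4), not called by limma, were negative by edgeR (-0.095, adjusted p = 0.0431, and -0.099, 0.0328) and DESeq2 (-0.11, 0.0472, and -0.11, 0.0371). The cause was not tested.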
